A study of Saccharomyces cerevisiae with 6 samples.

Results

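The 9 genes described here belong to lysine biosynthesis in the budding yeast Saccharomyces cerevisiae: the enzyme genes LYS20, LYS21, LYS4, LYS12, LYS2, LYS5, LYS9 and LYS1, and LYS14, which encodes their activator. They were chosen by gene name, as the probe sets annotated to these genes on an Affymetrix yeast array, and are 9 of 5656 genes measured. Each had 1 probe set of its own, and all 9 lay above the intensity floor on all 6 arrays, where the floor of 61.7 is the 25th percentile of the scaled values. A further probe set was annotated to LYS20 and LYS21 together, which are close paralogs.

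Fungi make lysine from alpha-ketoglutarate and acetyl-CoA through alpha-aminoadipate. Lysine inhibits the homocitrate synthases at the head of the route. Alpha-aminoadipate semialdehyde, an intermediate, acts as the coinducer of Lys14, a zinc cluster activator, so that a low lysine supply raises LYS gene transcription. The general amino acid control activator Gcn4 also acts on several LYS genes.

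All cultures derived from strain YSX3, a MATalpha strain carrying the Pichia stipitis genes XYL1 (allele leu2::LEU2-XYL1), XYL2 (ura3::URA3-XYL2) and XYL3 (Ty3::NEO-XYL3), which allow growth on xylose. Each of 3 backgrounds was measured once on glucose and once on xylose in YP, a complex medium that contains amino acids. Aerobic cultures had 20 g/L sugar, filled 200 ml of a 1000 ml flask, were agitated at 300 rpm and were sampled when the OD600 was 1. Oxygen-limited cultures had 40 g/L sugar, filled 50 ml of a 125 ml flask, were agitated at 100 rpm and were sampled when the OD600 was 30, so that oxygen supply, sugar concentration and culture density cannot be told apart. The third background was FPL-YSX3P, a respiration-deficient (petite) mutant of this strain, harvested from glucose at an OD600 of 1 for the glucose array and kept for 24 hours in xylose medium for the xylose array. Sugar concentration, medium volume, flask size and shaking are not given for the petite cultures, so whether these matched the aerobic cultures is not known. Strain derivation therefore differs together with any such difference in both petite arrays, and with growth history at least in the xylose array. Within the petite pair, sugar and growth history also differ together and cannot be told apart. Whether the mutant is 1 clone is not given in the sources used here. As a check of that label, OLI1 and COX1, protein genes of the mitochondrial genome, were at the floor on both petite arrays, while the other 4 arrays ranged from 1062 to 2480 for OLI1 and from 374 to 1393 for COX1.

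Every condition is represented by a single array, so precision is limited by their number. Deposited median intensities lay 0.05 to 0.38 above that of the aerobic glucose array on the log2 scale, so the arrays were brought to 1 common median, and the intensities below are on that scale. Between 88.0% and 90.5% of genes were above the floor on each array. An intensity from a whole culture does not separate the share of cells that express a gene from the level per cell.

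The comparison of the sugars asked which native genes are set at other levels when xylose replaces glucose. In aerobic and in petite cells each of the 9 lysine genes was higher on xylose than on glucose. Over all genes compared, 2562 of 5138 were higher in aerobic and 2481 of 5246 in petite cells. LYS5 differed by only 0.06 on the log2 scale in aerobic cells. Under oxygen limitation 5 of the 9 were higher and 4 lower, and none of the 9 differed by 2-fold. There 2613 of 5217 genes compared were higher. The largest differences lay at both ends of the route, in the homocitrate synthase gene LYS20 and in LYS9 and LYS1, which encode the saccharopine dehydrogenases of the last steps. The highest of a gene's 6 values fell on the aerobic xylose array for 4 genes and on the petite xylose array for 5.

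**Figure D1:**
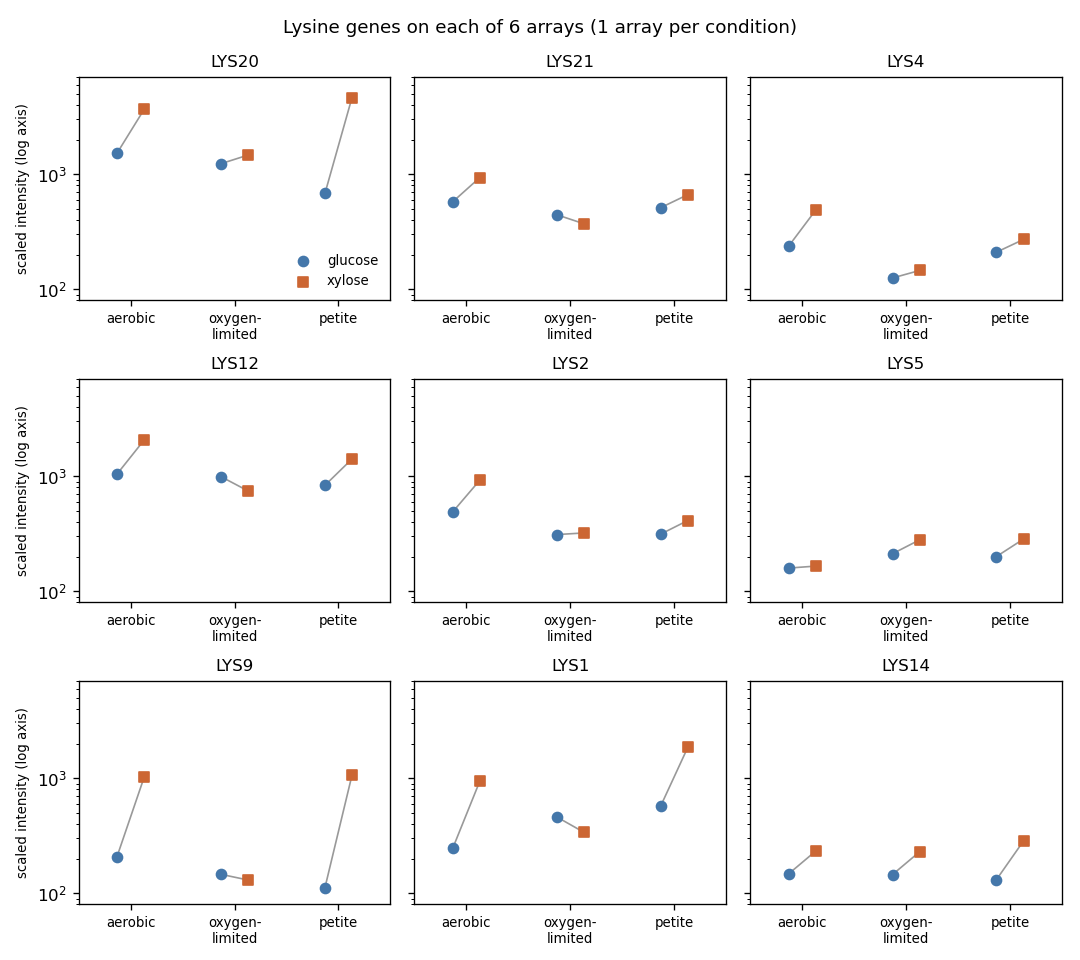
Scaled intensity (log axis) of the 9 lysine genes on glucose (circles) and xylose (squares) in aerobic, oxygen-limited and petite cells, 1 array per point, with a line joining the arrays of a background. LYS9 goes from 208 to 1018 in aerobic and from 112 to 1067 in petite cells, but from 146 to 130.4 under oxygen limitation.

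LYS20 (YDL182W, probe set 6682_at) encodes a homocitrate synthase, which starts the pathway. Its aerobic intensity was 1527 on glucose and 3665 on xylose, against 1238 and 1471 with limited oxygen and 684 and 4657 in petite cells. Xylose was higher in 3 of 3 backgrounds, but the oxygen-limited xylose value lay below the aerobic glucose value, so the sugars overlapped. The differences were 1.26, 0.25 and 2.77 on the log2 scale. LYS21 (YDL131W, probe set 6597_at) encodes the other homocitrate synthase and had 577 and 938, 445 and 372, and 513 and 665 in the same order. Its log2 differences were 0.70, -0.26 and 0.37, smaller than those of LYS20 in the aerobic and petite pairs. The probe set shared by both genes (6683_g_at) had 1605 and 2946, 1525 and 1748, and 1228 and 3637. Its log2 differences of 0.88, 0.20 and 1.57 ranked the backgrounds as those of LYS20 did, and the share of each paralog in its signal is not known.

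The genes of the middle steps had smaller fitted sugar differences than LYS20, LYS9 and LYS1, as LYS21 also had. LYS4 (YDR234W, probe set 6245_at) encodes homoaconitase; its aerobic intensity was 237 on glucose and 487 on xylose, against 125 and 146 with limited oxygen and 210.3 and 271 in petite cells. LYS12 (YIL094C, probe set 4172_at), the homoisocitrate dehydrogenase gene, had 1046 and 2066, 993 and 747, and 836 and 1416 in that order. Both had their highest value on the aerobic xylose array, which was 2.06-fold above aerobic glucose for LYS4 and 1.97-fold for LYS12. LYS2 (YBR115C, probe set 7251_at) encodes the alpha-aminoadipate reductase and had 491 and 926, 311 and 322, and 314 and 413. LYS5 (YGL154C, probe set 5181_at) encodes the phosphopantetheinyl transferase that activates the Lys2 protein, and it had 159 and 166, 212 and 280.1, and 200.7 and 285. Unlike the other enzyme genes it had its smallest sugar difference in the aerobic pair, 0.06, with 0.40 under oxygen limitation and 0.50 in petite cells.

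The last steps had the widest range. LYS9 (YNR050C, probe set 8808_at) encodes the saccharopine dehydrogenase that uses glutamate, and its intensity was 208, 146 and 112 on glucose in aerobic, oxygen-limited and petite cells. On xylose it was 1018, 130.4 and 1067 in the same order. The aerobic and petite xylose arrays thus stood 4.88-fold and 9.51-fold above their glucose partners, while the oxygen-limited xylose array was at 0.892 of its partner. LYS1 (YIR034C, probe set 4070_at) encodes the saccharopine dehydrogenase that releases lysine. Its glucose and xylose intensities were 247 and 945 in aerobic cells, 461 and 339.7 with limited oxygen and 575 and 1858 in petite cells. Its xylose values overlapped the glucose values, because the oxygen-limited xylose array was below 2 of the 3 glucose arrays.

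The activator gene LYS14 (YDR034C, probe set 6448_at) had another pattern. Its glucose and xylose intensities were 147 and 232, 145 and 229.6, and 132 and 285, so that all 3 xylose arrays lay above all 3 glucose arrays. Its log2 difference was 0.66 in aerobic cells, 0.66 under oxygen limitation and 1.12 in petite cells. Among the 9 genes it was the one whose sugars did not overlap, where 6.94% of all 5462 genes tested had every xylose array above every glucose array and 3.63% had every one below.

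As a count, 4 of 9 lysine genes (LYS20, LYS4, LYS9 and LYS1) were at least 2-fold higher on xylose in aerobic culture, where 3.13% of all genes compared were. In the petite mutant 4 of 9 (LYS20, LYS9, LYS1 and LYS14) reached that size, against 5.76% of all genes. Under oxygen limitation the count was 0 of 9, with 8.76% of all genes. No lysine gene was at least 2-fold lower on xylose in any background, where 2.1%, 4.24% and 5.28% of all genes were in aerobic, oxygen-limited and petite cells. The median log2 difference of the 9 genes was 0.98, 0.05 and 0.76 in aerobic, oxygen-limited and petite cells, and that of all genes compared was 0.00, 0.00 and -0.04. Probe sets of the same gene differed in these pairs with an SD of 0.20, 0.42 and 0.40 on the log2 scale. That spread is within arrays and does not measure variation between cultures. These differences rest on 1 array per condition and have no replicate check.

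**Figure D2:**
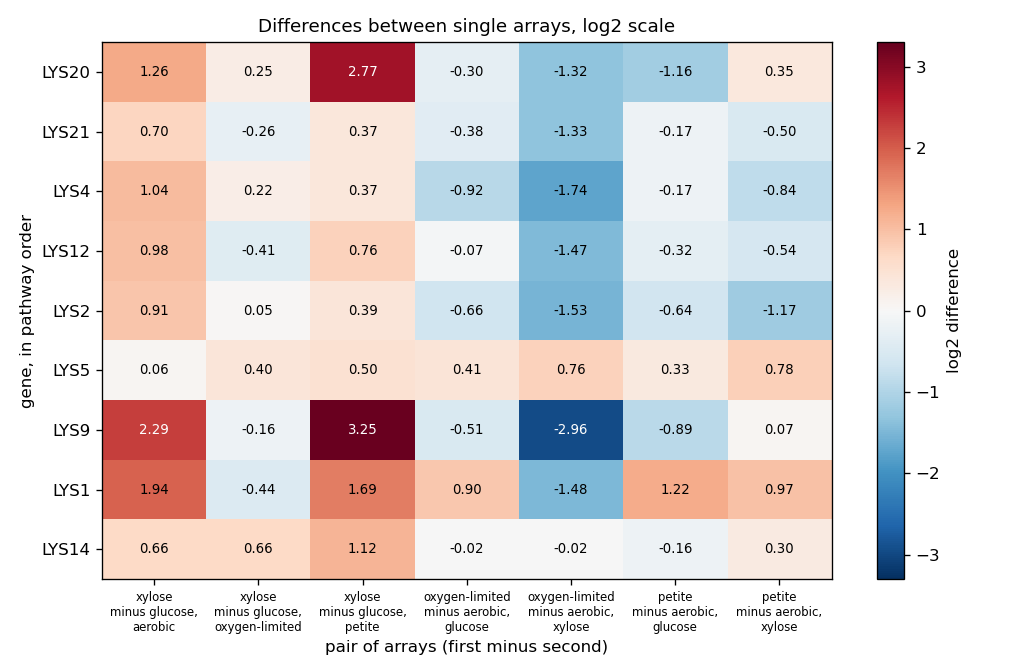
Log2 differences between single arrays for the 9 lysine genes (rows, enzymes in pathway order and then LYS14) in 7 pairs of arrays (columns); red is higher and blue lower on the array named first. The columns of xylose against glucose are red in aerobic cells (LYS5 nearly white) and petite cells and pale under oxygen limitation, and the column of oxygen-limited against aerobic cells on xylose is blue for 7 genes.

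Background and sugar were then fitted as additive terms to all 5462 genes with limma. It gave a positive xylose difference for 9 of 9 lysine genes, beside 2556 of the 5462 genes tested. None of the 9 passed at an adjusted p under 0.05. Over all genes 0.677% rose and 0.0732% fell. The estimates were 1.79 ± 0.64 (SE) for LYS9 (higher in 2 of 3 pairs, limma adjusted p = 0.209), 1.43 ± 0.47 for LYS20 (higher in 3 of 3 pairs, limma adjusted p = 0.189) and 1.06 ± 0.49 for LYS1 (higher in 2 of 3 pairs, limma adjusted p = 0.276). LYS14, at 0.81 ± 0.17, had the smallest p of the 9 (higher in 3 of 3 pairs, limma adjusted p = 0.112). The other 5 estimates lay between 0.27 for LYS21 and 0.54 for LYS4, with limma adjusted p from 0.222 to 0.507. Without adjustment 4 of the 9 genes, LYS20, LYS4, LYS9 and LYS14, had a p under 0.05, as had 658 higher and 535 lower genes among all tested. The median estimate of the 9 genes was 0.54, beside -0.03 over all genes. The estimates depended on which pairs entered. For LYS9 the estimate was 2.77 without the oxygen-limited pair, 1.06 without the petite pair and 1.54 without the aerobic pair. For LYS20 it was 2.02, 0.76 and 1.51, and for LYS1 1.81, 0.75 and 0.62, in the same order. None of the 9 genes passed in limma with any of these pairs left out, and all estimates stayed positive. Over all genes 0 rose and 0 fell without the oxygen-limited pair, 12 and 0 without the petite pair, and 42 and 7 without the aerobic pair. Not passing in these fits is thus no trait of the lysine genes.

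**Figure D3:**
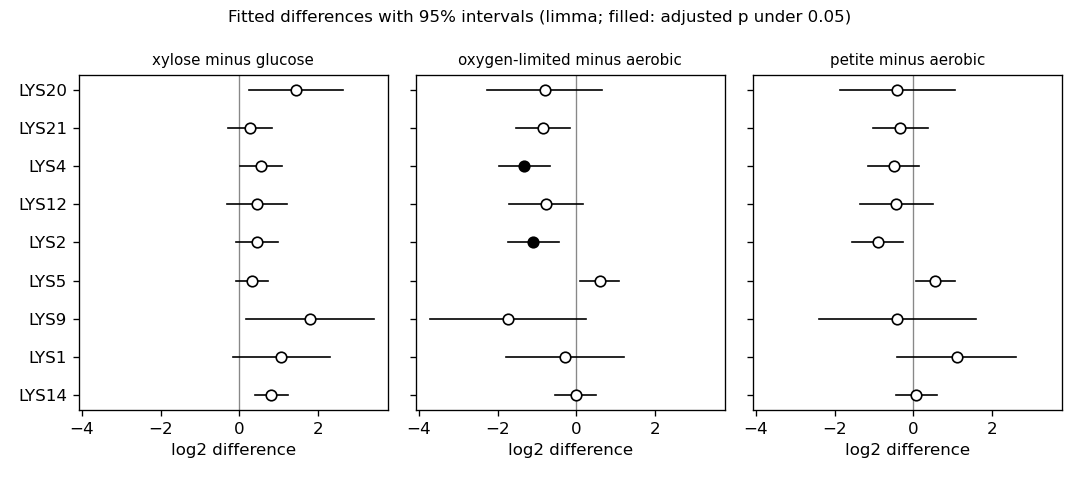
Fitted log2 differences (points) with 95% intervals (lines) for the 9 lysine genes in 3 comparisons from the limma model over 6 arrays; filled points passed at an adjusted p under 0.05. LYS4 and LYS2 are filled in the comparison of oxygen-limited with aerobic cells, and no point is filled in the others.

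That model takes sugar to act alike in each background, and the residual spread was widest for LYS9, at 1.24 on the log2 scale, followed by LYS1 at 0.92 and LYS20 at 0.90. For LYS14 it was 0.19 and for LYS5 0.17. A term was therefore added that let xylose act differently in 1 background at a time, which leaves 1 residual degree of freedom; this was chosen after the values were seen. With oxygen limitation set apart, the extra difference is the xylose difference there minus the mean of those in aerobic and petite cells. It thus restates the differences between single arrays given above. The extra difference was -2.93 ± 0.58 (SE) for LYS9 (limma adjusted p = 0.888, unadjusted p = 0.0251), -2.26 ± 0.25 for LYS1 (limma adjusted p = 0.888, unadjusted p = 0.00658) and -1.28 ± 0.24 for LYS12 (limma adjusted p = 0.888, unadjusted p = 0.0224). For LYS14 it was -0.23 ± 0.33 and for LYS5 0.12 ± 0.32. None of these passed, and limma called 0 of 5462 genes (0%) with oxygen limitation set apart, with 140 higher and 99 lower at an unadjusted p under 0.05. With the petite mutant set apart the extra difference was 2.01 ± 0.58 for LYS20 (limma adjusted p = 0.717, unadjusted p = 0.0485), and limma again called 0 genes, with 116 higher and 212 lower at an unadjusted p under 0.05. With aerobic culture set apart the unadjusted p of the 9 genes was 0.0767 or more, and limma called 0 genes, with 68 higher and 127 lower at an unadjusted p under 0.05. The difference between backgrounds in the xylose response of the lysine genes was thus not shown by a test in this design.

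The comparison of oxygen-limited with aerobic cells asked how the genes differ between cultures that differ in air supply, sugar concentration and density together. On xylose 7 of 9 lysine genes were at least 2-fold lower under oxygen limitation, namely every enzyme gene but LYS5, where 15.4% of all genes compared were at least 2-fold lower. On glucose 0 of 9 were, against 11.5% of all genes. None was at least 2-fold higher under oxygen limitation, where 9.36% of all genes were on xylose and 4.5% on glucose. Probe sets of the same gene differed in these pairs with an SD of 0.66 on xylose and 0.73 on glucose. The median log2 difference of the 9 genes was -1.47 on xylose and -0.30 on glucose, beside -0.08 and -0.12 over all genes. LYS9 had the largest difference, 7.80-fold lower on xylose, and LYS4 was 3.34-fold lower. LYS1 was lower on xylose by 2.78-fold but 1.87-fold higher on glucose.

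In the limma fit over both sugars 2 of 9 lysine genes fell, LYS4 and LYS2, where 15.9% of all genes fell and 8.04% rose. LYS4 fell by 1.33 ± 0.26 (SE) on the log2 scale (lower in 2 of 2 pairs, limma adjusted p = 0.0275), from 237 and 487 on glucose and xylose in aerobic culture to 125 and 146. LYS2 fell by 1.09 ± 0.26 (lower in 2 of 2 pairs, limma adjusted p = 0.0392), from 491 and 926 to 311 and 322. For both genes the 2 oxygen-limited arrays lay below the 2 aerobic ones. The same held for LYS20, LYS21, LYS12 and LYS9, which makes 6 of 9 genes, and 36.8% of all genes had this order. LYS9 had the lowest estimate, -1.74 ± 0.79, and missed the threshold (limma adjusted p = 0.157), as did LYS21 at -0.85 ± 0.27 (limma adjusted p = 0.0757), LYS20 at -0.81 ± 0.58 (limma adjusted p = 0.339) and LYS12 at -0.77 ± 0.37 (limma adjusted p = 0.175). LYS5 went the other way, at 0.59 ± 0.20 (limma adjusted p = 0.0873), with both oxygen-limited arrays above both aerobic ones; 25.8% of all genes had that order. LYS1 and LYS14 were at -0.29 ± 0.59 and -0.02 ± 0.21, and both signs turned with the values as deposited, to 0.07 and 0.33; that of LYS14 also turned with quantile normalization, to 0.02. The LYS4 call held under each of 8 alternatives, with a limma adjusted p from 0.0200 to 0.0492, whereas the LYS2 call was lost under 5 of 8, with a limma adjusted p up to 0.0919. With the values as deposited the split over all genes turned from 439 rising and 868 falling to 1032 rising and 430 falling, and the median of all genes moved from -0.08 to 0.21.

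The petite mutant was compared with the aerobic parent in the same fit and shares the aerobic arrays with the oxygen comparison. Of the 9 lysine genes 0 rose and 0 fell; limma called 1 gene higher and 1 lower among all genes (0.0183% each), and at an unadjusted p under 0.05 it had 636 higher and 1211 lower. Among the lysine genes LYS5 and LYS2 had an unadjusted p under 0.05. LYS5 was at 0.56 ± 0.20 (SE; limma adjusted p = 0.124), with both petite arrays above both aerobic arrays, an order that 21.8% of all genes had. LYS2 was at -0.91 ± 0.26 (limma adjusted p = 0.0827), with both petite arrays below, as in 37.9% of all genes. LYS1 had the highest estimate, 1.10 ± 0.59 (limma adjusted p = 0.25), with intensities 2.33-fold above the aerobic array on glucose and 1.97-fold on xylose. LYS20 was lower in petite cells on glucose, by 2.23-fold, and 1.27-fold higher on xylose. On glucose 1 gene was at least 2-fold higher (LYS1, beside 4.72% of all genes) and 1 lower (LYS20, beside 5.05%). On xylose 0 were that much higher (8.44%) and 1 lower (LYS2, 13.5%). By sign, 2 of the 9 were higher and 7 lower on glucose, and 5 higher and 4 lower on xylose. Over all genes 3076 of 5272 were lower on glucose and 3047 of 5287 on xylose. The fitted estimate was positive for 3 of the 9 and negative for 6, beside 3196 negative of 5462 genes.

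Other steps of the pathway and its surroundings were read from lists of genes chosen by function. For the remaining steps and precursor supply, 12 genes were tested. On xylose 0 of the 12 rose or fell in limma, where 0.677% of all genes rose and 0.0732% fell. The median estimate of the 12 was -0.01. At an unadjusted p under 0.05, 2 were higher and 1 lower, beside 658 higher and 535 lower of 5462 genes. ARO8, an aminotransferase that acts between LYS12 and LYS2, had 1581 on glucose and 1543 on xylose in aerobic cells, 1618 and 680.1 with limited oxygen and 1189.5 and 707 in petite cells. Its fitted difference on xylose was -0.68 ± 0.26 (lower in 3 of 3 pairs, limma adjusted p = 0.22). It was thus not higher on xylose in any background, unlike LYS20 or LYS4. The 2 genes higher at that unadjusted p, named here after their values were seen, were GDH3, a glutamate dehydrogenase, at 1.53 ± 0.40 (higher in 3 of 3 pairs, limma adjusted p = 0.148) and ODC1, a mitochondrial carrier of oxodicarboxylates, at 1.02 ± 0.33 (higher in 3 of 3 pairs, limma adjusted p = 0.187). GDH3 was at the floor on the oxygen-limited glucose array, so its estimate depends on the floor. Under oxygen limitation 2 of the 12 fell, a share near the 15.9% of all genes that fell. These were GDH1, the main NADPH-dependent glutamate dehydrogenase, by 1.61 (lower in 2 of 2 pairs, limma adjusted p = 0.0326) and IDH1, a subunit of the mitochondrial isocitrate dehydrogenase, by 1.17 (lower in 2 of 2 pairs, limma adjusted p = 0.0226). In the petite comparison 0 of 12 passed in limma, with 1 higher and 2 lower at an unadjusted p under 0.05. There 0.0183% of all genes rose and 0.0183% fell, with 636 higher and 1211 lower of 5462 at that unadjusted p.

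Of 5 regulators 0 passed limma in any of the 3 comparisons. Over all genes 0.677% rose and 0.0732% fell on xylose, 8.04% and 15.9% under oxygen limitation, and 0.0183% each in petite cells. At an unadjusted p under 0.05, 1 regulator was higher on xylose and 1 under oxygen limitation, beside 658 and 875 of 5462 genes. GCN4 had 3569.8 on glucose and 4061 on xylose in aerobic cells, 1958 and 4019 with limited oxygen and 2360.1 and 4107 in petite cells. Its estimate on xylose was 0.67 ± 0.21 (higher in 3 of 3 pairs, limma adjusted p = 0.181). Its largest difference, xylose 2.05-fold above glucose, was in oxygen-limited cells. There the median of the lysine genes was 1.03-fold. An RNA intensity does not measure the Gcn4 protein, and a link between GCN4 and the lysine genes was not tested. MKS1, a negative regulator whose loss raises LYS gene expression, was at -0.23 ± 0.23 (lower in 2 of 3 pairs, limma adjusted p = 0.572), and the retrograde regulator RTG2 was at 0.25 ± 0.16 (higher in 3 of 3 pairs, limma adjusted p = 0.389).

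Of 11 genes of lysine transport and of charging to its tRNA, 9 were measured. Of these, 0 passed limma on xylose, with 2 lower at an unadjusted p under 0.05. On xylose 0.677% of all genes rose and 0.0732% fell, and 535 of 5462 were lower at that unadjusted p. LYP1, the lysine permease of the plasma membrane, was at 0.40 ± 0.17 (higher in 3 of 3 pairs, limma adjusted p = 0.24). KRS1, the cytosolic lysyl-tRNA synthetase, had 1584 and 1101, 825 and 276, and 762 and 300.4, with an estimate of -1.15 ± 0.24 (lower in 3 of 3 pairs, limma adjusted p = 0.112). The synthetase gene was thus lower on xylose in each background, also in aerobic and petite cells, where the 9 lysine genes were higher. Under oxygen limitation 2 of the 9 fell, where 15.9% of all genes did. KRS1 fell by 1.47 (lower in 2 of 2 pairs, limma adjusted p = 0.0294) and YPQ1, a vacuolar transporter of basic amino acids, by 1.46 (lower in 2 of 2 pairs, limma adjusted p = 0.0232). In the petite comparison 0 of 9 passed in limma, with 2 higher and 4 lower at an unadjusted p under 0.05. Over all genes 0.0183% rose and 0.0183% fell there, with 636 higher and 1211 lower of 5462 at that unadjusted p.

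Other amino acid families are set beside the lysine genes by their values; the differences between families were not tested. The median xylose difference of 7 histidine genes was -0.37 in aerobic cells and -1.14 under oxygen limitation, and -1.36 in petite cells over 6 of them. For 7 arginine genes it was 0.19 (over 6 of them), -0.71 and -0.56, and for 10 branched-chain genes -0.07, -0.25 and -0.16. In the limma fit on xylose, where 0.677% of all genes rose and 0.0732% fell, 1 of 7 histidine genes fell, HIS4, by 1.32 (lower in 3 of 3 pairs, limma adjusted p = 0.043), and 0 of 7 arginine and 0 of 10 branched-chain genes passed. Under oxygen limitation, where 8.04% of all genes rose and 15.9% fell, ARG1 rose and ARG2 fell among 7 arginine genes. ARG2 was at the floor on the oxygen-limited glucose array, so its estimate depends on the floor. Of 10 branched-chain genes 5 fell, namely ILV1, ILV2, ILV5, LEU9 and BAT2. The limma adjusted p ran from 0.0234 to 0.0484 over ARG1, ARG2 and these 5 genes.

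**Figure D4:**
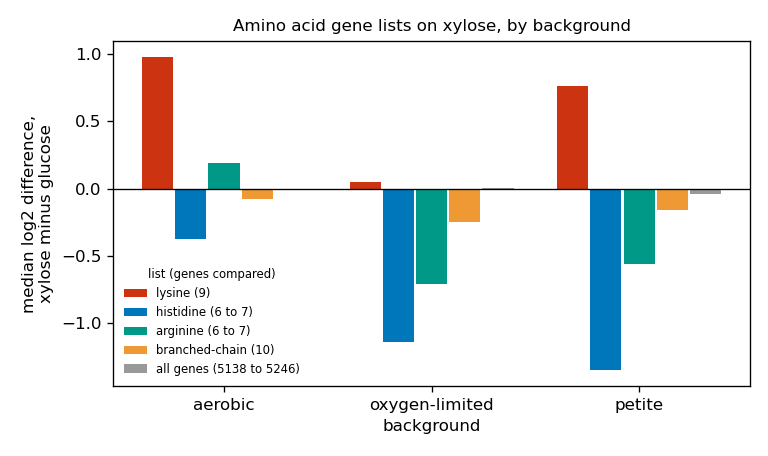
Median log2 difference between xylose and glucose (bars) for 4 lists of amino acid genes and for all genes, in each background; the number of genes compared is in the legend. The lysine bar is at 0.98 in aerobic cells, 0.05 under oxygen limitation and 0.76 in petite cells, and the histidine bar is below 0 in all 3.

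Apart from LYS5, each lysine enzyme gene had a positive Pearson r with the mean of the others over the 6 arrays. These arrays share the same scaling. Without LYS5, the Pearson r of single pairs ran from 0.29 (LYS2 with LYS1) to 0.96 (LYS21 with LYS4). No other set of genes was compared in this way. LYS9 had a Pearson r of 0.99 with the mean of the other 7 enzyme genes, LYS12 of 0.92, LYS20 of 0.88 and LYS21 of 0.86. For LYS4 it was 0.79, for LYS1 0.72 and for LYS2 0.71, and for LYS5 -0.10. LYS14 had an r of 0.73 with the mean of the 8 enzymes. The profile of the 8 enzymes, as the mean log2 value, stood at an intensity of 415 and 919 on glucose and xylose in aerobic culture, 364 and 352 under oxygen limitation and 355 and 852 in petite cells. Among 1571 other genes above the floor on all arrays and with an SD of at least 0.5, the profiles most like it were those of CPA1 (r = 0.97), which encodes a subunit of the arginine-specific carbamoyl phosphate synthetase, and DLD1 (r = 0.97), a mitochondrial D-lactate dehydrogenase. The next were PYK2 (r = 0.94), a minor pyruvate kinase, GOR1 (r = 0.90), a glyoxylate reductase, and CTP1 (r = 0.89), the mitochondrial citrate transporter. CPA1, also a member of the arginine list, had 1675 on glucose and 3961 on xylose in aerobic cells, 1653 and 1692 with limited oxygen and 1236 and 4623 in petite cells. It was thus high on the same 2 arrays as LYS20 and LYS9. These correlations describe 6 arrays and were picked as the highest of many.

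**Figure D5:**
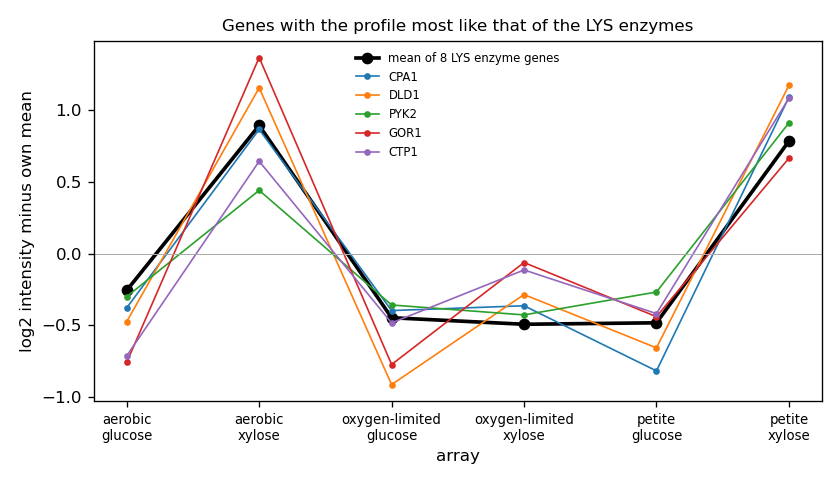
Log2 intensity minus each profile's own mean (y axis) on the 6 arrays (x axis) for the mean of the 8 LYS enzyme genes (black) and the 5 other genes with the highest correlation to it. All 6 lines peak on the aerobic and petite xylose arrays, and on the oxygen-limited xylose array all 6 lie below 0.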

How the data were processed

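Total RNA of 6 cultures was hybridised to Affymetrix yeast arrays, per the labels' protocols. The authors deposited 1 linear intensity for each probe set; no source used here names the software or the scaling behind it. The table has 9335 probe sets, of which 60 controls and 1 without a value were dropped, and 9274 remained. The platform annotation gave 1 gene symbol for 6504, several for 328 and none for 2442. The symbols of these 6504 probe sets, which stand for 5656 genes, matched RefSeq names of assembly R64.

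Arrays were scaled to a common median, values under the 25th percentile (61.7) were set to it, log2 was taken, and the brightest probe set stood for its gene. The 5462 genes with an array above the floor were fitted with limma 3.58.1 in R 4.3.3 (terms for background and sugar, 2 residual degrees of freedom, moderated variances), and p-values were Benjamini-Hochberg adjusted over all of them at 0.05. Differences between single arrays have no p-value. With 1 array per condition, each effect is tested against the residual spread around additive sugar and background effects, not against a spread between replicate cultures.

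Named were the 9 lysine genes, members of related lists that passed in a comparison, else the 3 with the largest sugar difference, with ARO8, MKS1, GCN4, LYP1 and KRS1 always, and the 5 genes closest in profile. Members and lists were chosen with earlier results of these data known. The procedure was tested on simulated data. No sequence was used, and some listed genes are not reported here. Alternatives tried were no scaling, quantile normalization, a floor at percentile 10 or 40, averaging a gene's probe sets, a variance trend in limma, subtracting from each array its running median over neighbouring probe set numbers, and leaving out each pair. A sugar term for 1 background at a time was added after seeing the data.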

Additional observations from a re-analysis of the deposited data

How the results depend on the processing

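None of the 9 lysine genes passed on xylose in any of 90 fits under alternatives, or in the petite comparison in any of 72, and none of these changed sign. These fits are the same 9 genes under 10 and 8 settings, so they are not separate checks. With the floor at the 40th percentile no gene at all passed in either comparison, nor on xylose without the oxygen-limited pair. Not passing under such settings is no trait of the lysine genes. For oxygen limitation 1 lysine gene fell in place of 2 with the floor at the 40th percentile, with quantile normalization, with the probe set number trend removed, without the petite pair and with the values as deposited. LYS2 was then at -1.09, -0.85, -1.08, -1.09 and -0.74. With the values as deposited 1 rose, LYS5 at 0.94 (limma adjusted p = 0.0288). LYS14 turned from -0.02 to 0.023 with quantile normalization and to 0.33 as deposited, and LYS1 turned from -0.29 to 0.066 as deposited. The oxygen-limited and petite arrays were brighter as deposited, so leaving out the scaling raises every such difference. Counts of lysine genes at least 2-fold apart between single arrays moved with scaling. The share of all genes that far apart is not given for these settings, so the moved counts are no result about the lysine genes. In the fits, the median of all genes moved as deposited from -0.08 to 0.21 for oxygen limitation and from -0.11 to 0.11 for the petite mutant. With quantile normalization these medians were 0.02 and -0.04. As deposited there was 1 higher on glucose and 1 on xylose for oxygen limitation, and 0 lower on glucose and 2 higher and 0 lower on xylose for the petite mutant. With quantile normalization there was 1 higher on glucose for oxygen limitation, and 0 lower on glucose and 1 higher and 0 lower on xylose for the petite mutant. The xylose counts in each background stayed between 3 and 5 in aerobic cells, at 0 under oxygen limitation and at 4 in petite cells.

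Counts over all genes moved more, and the cause was not tested. On xylose, 37 rose and 4 fell, against 83 and 15 with the floor at the 10th percentile, 0 and 0 at the 40th, 22 and 2 with the mean over probe sets, 10 and 1 with the trend removed and 0 and 0 without the oxygen-limited pair. There 20 rose with quantile normalization, 7 fell with a variance trend, 7 fell without the aerobic pair, and 12 rose and 0 fell without the petite pair. For oxygen limitation 214 rose with the floor at the 40th percentile and 559 fell with quantile normalization, and 1032 rose and 430 fell as deposited. For the petite mutant, 219 rose and 340 fell with the floor at the 10th percentile, 168 and 31 as deposited and 133 and 230 with a variance trend. In that comparison 0 and 0 passed with the floor at the 40th percentile, the mean over probe sets, the trend removed or quantile normalization, and 0 rose without the oxygen-limited pair. The oxygen and petite comparisons need the aerobic pair and were not run without it. The background term already pairs the sugars within a background, and the labels carry no replicate numbers, so no further pairing was fitted.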

Other observations

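The rank of a gene among the 9274 probe sets of its array does not depend on the scaling between arrays. LYS9 stood at percentile 60.2 on aerobic glucose and 90.4 on aerobic xylose, at 49.0 and 45.0 under oxygen limitation, and at 40.6 and 92.6 in petite cells. LYS20 reached percentile 99.5 on the petite xylose array, from 87.9 on petite glucose. LYS4 stood at 64.4 and 80.6 on glucose and xylose in aerobic culture, 43.7 and 48.8 under oxygen limitation and 61.1 and 69.3 in petite cells. LYS1 was lowest on aerobic glucose, at percentile 65.7, and highest on petite xylose, at 96.2. LYS14 stayed between 45.6 and 70.8, with each glucose array below each xylose array.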
